A study of Homo sapiens with 72 samples.

Results

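The effect of putrescine alone was followed in ectocervical epithelial cells: 3 libraries of the Ecto line labelled PUT+noGV were compared with the 3 libraries of the same line labelled NT+noGV. These 6 libraries were chosen by their labels, out of 24 Ecto libraries and 72 libraries in the whole study. Ecto (Ect/E6E7) is a line of human ectocervical cells immortalized with the E6 and E7 genes of a human papillomavirus, and all libraries of both groups came from this line. PUT+noGV cells received 4 mM putrescine for 4 h and were then cultured for 24 h without bacteria, and NT+noGV cells were non-treated and received no bacteria. The other libraries used below are Ecto cells exposed to 10000000 CFU per well of live Gardnerella vaginalis for 24 h without pretreatment (NT+GV) or after putrescine (PUT+GV), Ecto cells given 400 µM spermidine (SPD+noGV) or spermine (SPM+noGV), and the PUT+noGV and NT+noGV groups of the endocervical line Endo (End1/E6E7) and the vaginal line VK2 (VK2/E6E7), which carry E6 and E7 too. Each group held 3 libraries. The labels do not say whether these were separate cultures, so the errors and p-values below measure the spread between libraries.

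Putrescine is a small diamine that carries positive charges at the pH of a cell. Cells make it from ornithine by ornithine decarboxylase, add aminopropyl groups to it to form spermidine and spermine, and return it from them by acetylation and oxidation. Antizymes, whose translation rises with polyamines, send ornithine decarboxylase to the proteasome and slow polyamine uptake, and antizyme inhibitors hold them back. In the vagina and on the ectocervix much putrescine comes from bacteria, and the epithelium there is a layered squamous one whose cells change keratins and junctions as they mature. The comparison of PUT+noGV with NT+noGV asks which transcripts differed in ectocervical cells given the diamine when no bacterium was present.

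The data were estimated counts per gene from ribosome-depleted total RNA, with 25939821 to 42767996 counts per library in NT+noGV and 29281535 to 35993210 in PUT+noGV. Levels are given as CPM, the count scaled to a common normalised library size, for each of the 3 libraries in replicate order, and a fold change is log2 of PUT+noGV over NT+noGV with its standard error (SE). Genes were tested with edgeR's quasi-likelihood test, a gene rose or fell at an adjusted p under 0.05, and it was called raised or lowered where it also changed at least 2-fold. The 4 markers of squamous epithelium, KRT5, KRT14, TP63 and KRT6A, were abundant in sum in every library, and that sum ran from 7670 to 8060 CPM in NT+noGV and from 9000 to 9480 CPM in PUT+noGV. It was mostly KRT5 and KRT6A. Of the 4, 2 rose and 1 fell, TP63, at 358 to 385 CPM in NT+noGV and 213 to 219 CPM in PUT+noGV. The 4 markers of simple epithelium, KRT8, KRT18, KRT19 and KRT7, summed to 4410 to 4690 CPM in NT+noGV and to 4140 to 4300 CPM in PUT+noGV. Markers of leukocytes, fibroblasts and endothelium were lower in sum, and each sum was higher in every PUT+noGV library. The 10 leukocyte markers summed to 63.8 to 65.0 CPM in NT+noGV and to 105 to 107 CPM in PUT+noGV, nearly all from CD68, CSF1R and CD14, while FCGR3A and NKG7 were at 0 in all 6 libraries. The 10 fibroblast markers summed to 44.4 to 47.3 and to 68.3 to 70.5 CPM, mostly COL1A1 and THY1, and the 8 endothelial markers to 15.6 to 16.1 and to 18.3 to 19.4 CPM. What part these markers have in the differences below was not tested.

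Putrescine moved many ectocervical transcripts by a little and fewer by 2-fold. Of 19459 genes tested, 4656 rose (23.9%) and 4458 fell (22.9%). At least 2-fold, 1165 were called raised (5.99%) and 282 lowered (1.45%). The list counts below are to be read beside these shares over all genes. The called genes were unlike in level: of the 6450 genes with a mean log2 CPM under 1, 941 were raised and 158 lowered, with a median log2 fold change of 0.30, and of the 13009 genes above that level 224 were raised and 124 lowered, with a median of -0.03. In the 1727 most abundant genes (a mean log2 CPM of at least 7), 19.3% rose and 39.7% fell, and 4 were called raised and 9 lowered. PUT+noGV libraries held counts for 26233 to 27043 genes and NT+noGV libraries for 24310 to 26201, and lncRNAs took 1.39% to 1.41% of the counts against 1.30% to 1.35%. Protein-coding genes made up 742 of the raised and 169 of the lowered genes, and lncRNAs 319 and 96. The plot of change against level shows this excess of raised genes at low levels. The cause of this excess was not tested. Positive medians of lists with genes at low levels are to be read beside it. Markers of other cell types had such medians too: 1.24 for endothelium (4 of 6 tested rose, 0 fell), 0.784 for leukocytes (3 of 4 rose, 0 fell) and 0.659 for fibroblasts (2 of 6 rose, 2 fell).

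**Figure D1:**
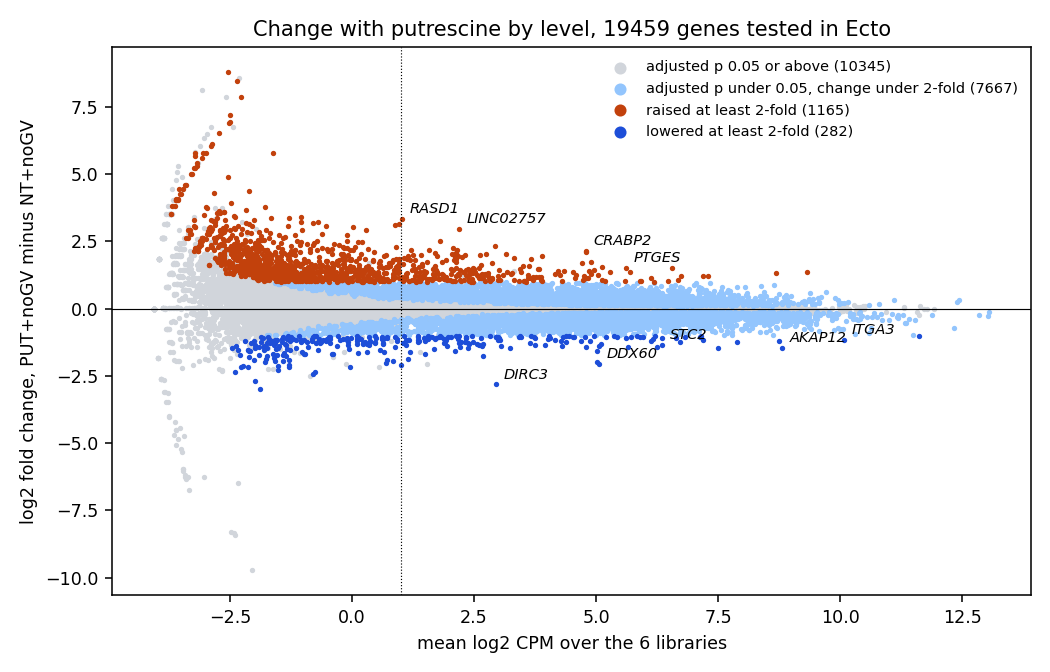
Each point is 1 of the 19459 genes tested in Ecto cells, with its mean log2 CPM over the 6 libraries on the x axis and its log2 fold change of PUT+noGV over NT+noGV on the y axis; orange and dark blue points were called raised or lowered, light blue points passed the test with less than a 2-fold change, and the dotted line is a mean log2 CPM of 1. Raised genes lie mostly below that line (941 of 1165), and lowered genes on both sides of it (158 and 124).

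The change also went with the length of the gene on the chromosome. Among protein-coding genes at a mean log2 CPM of 1 or more, the median log2 fold change went from 0.0701 in the 393 genes under 3 kb to -0.146 in the 364 genes of 300 kb or more. In the shortest class 136 rose and 84 fell, and in the longest class 58 rose and 159 fell. The PUT+GV libraries, which are separate from these 6, had medians of 0.142 and -0.18 against NT+GV for the same classes. In SPD+noGV and SPM+noGV, which are set against the same NT+noGV libraries, the medians were 0.103 and -0.104 with spermidine and 0.0495 and -0.0619 with spermine. Medians in Endo were 0.0428 and -0.00561, and in VK2 -0.0406 and 0.0222. What sets this was not tested.

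RASD1, a small GTPase of the Ras family first known as a steroid-induced gene, had the largest rise among genes at a mean log2 CPM of at least 1. It was at 0.364, 1.01 and 0.569 CPM in NT+noGV and 6.496, 5.74 and 6.22 CPM in PUT+noGV (log2 fold change 3.35, SE 0.21, adjusted p = 1.38e-11). RHOV, another small GTPase, went from 3.04, 3.43 and 3.69 CPM to 16.98, 15.8 and 18.3 CPM (log2 fold change 2.33, SE 0.13). For both genes every PUT+noGV library was above every NT+noGV library, by a wide gap. Choosing genes by the size of their change or by their adjusted p favours such separation, here and below. The share of all genes whose groups stand apart is not given, so separation adds no support of its own. CRABP2, which carries retinoic acid to its nuclear receptors, rose from 13.1, 12.4 and 13.98 CPM to 60.1, 54.9 and 59.3 CPM (2.14, SE 0.075, adjusted p = 2.19e-16). AQP3, the water and glycerol channel of keratinocytes, rose from 14.6, 12.3 and 12.6 CPM to 59.9, 52.4 and 60.7 CPM (2.13, SE 0.14). SNAI1, a repressor of E-cadherin, was lower in level, with 2.06, 1.86 and 2.38 CPM in NT+noGV and 9.304, 8.405 and 8.88 CPM in PUT+noGV (2.06, SE 0.15). In each of these 3 genes the groups did not overlap. MYLIP, a ubiquitin ligase that marks the LDL receptor for breakdown, rose by 2.04, GPER1, a membrane receptor for estrogen, by 2.04, KIF5C, a kinesin motor, by 2.16, SYT11, a vesicle protein, by 2.17, and KRT9, a keratin of palm and sole skin, by 2.19. The remaining leaders were the non-coding LINC02757 (2.96) and IMPDH1P10 (2.05), a pseudogene whose reads may be shared with its parent gene IMPDH1.

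Among genes at the same level, DIRC3, a long non-coding RNA, fell the most. It was at 23.6, 19.5 and 18.01 CPM in NT+noGV and 2.67, 2.46 and 3.6 CPM in PUT+noGV (log2 fold change -2.82, SE 0.21, adjusted p = 1.45e-09). DDX60, an interferon-induced helicase, went from 68.8, 69.7 and 62.7 CPM to 15.4, 17.8 and 15.7 CPM (-2.04, SE 0.11), and DYSF, a protein of membrane repair, from 64.1, 67.04 and 62.7 CPM to 15.2, 17.6 and 16.2 CPM (-1.98, SE 0.085). In all 3 genes each treated library was below each non-treated one. ADM2, a peptide hormone of the adrenomedullin family, went from 5.05, 3.75 and 3.49 CPM to 0.991, 1.15 and 0.707 CPM (-2.1, SE 0.22). CAMK2N1, an inhibitor of CaMKII, went from 307, 307 and 282 CPM to 111, 109 and 105 CPM (-1.46), and AKAP12, a scaffold for protein kinase A, from 771, 751 and 711 CPM to 278, 284 and 249 CPM (-1.46). IFIT2, another interferon-induced gene, fell by 1.57 on the log2 scale. ADIRF-AS1, MEGF6, CCDC191, LINC00886 and ZNF449 fell by 1.78, 1.67, 1.60, 1.58 and 1.46. The library kit keeps the strand of the RNA, but the strand setting of the counting is not stated in the sources used here, so reads of the antisense RNA ADIRF-AS1 may include some of ADIRF. All of these 24 leading genes stayed past an adjusted p of 0.05 in every other fit in which they were checked. These include fits with any 1 of the 6 libraries left out, but not the fit without SPD+noGV replicate 3. At a fold threshold of 4, a log2 fold change of 2, the 9 lowered genes other than DIRC3, DDX60 and ADM2 would not be called.

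**Figure D2:**
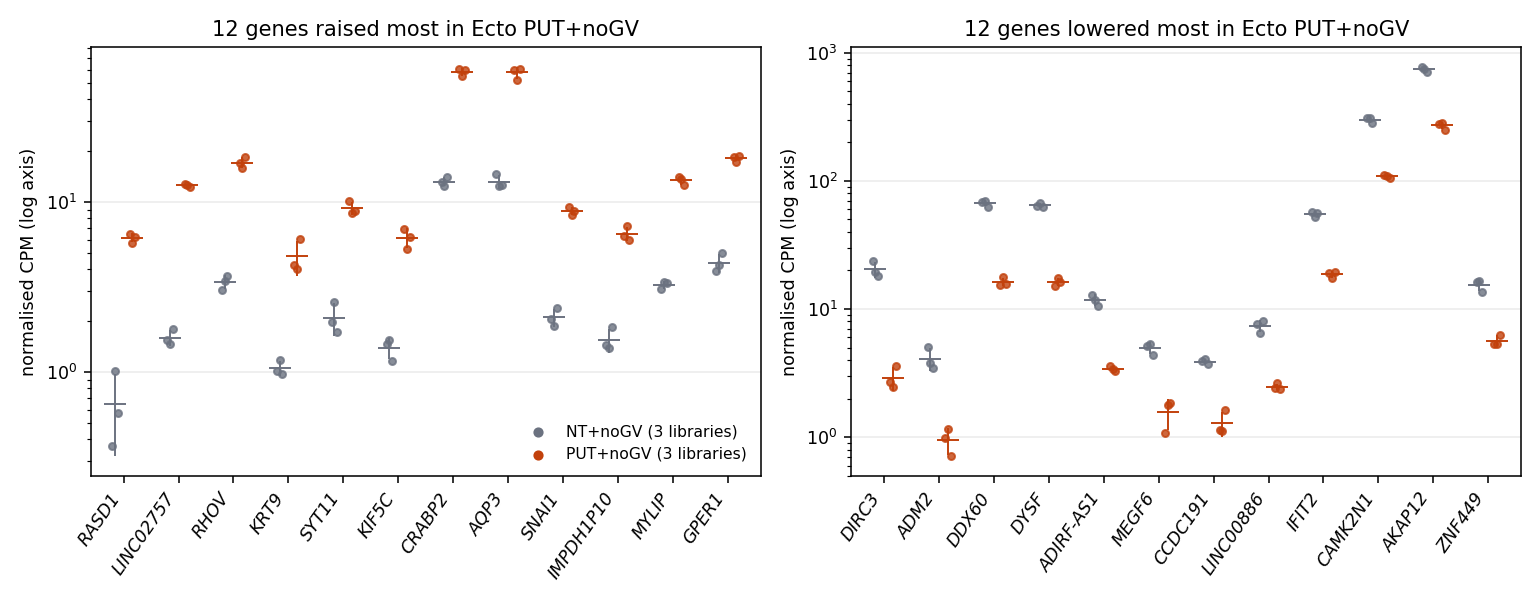
Normalised CPM per library on a log axis for the 12 genes with the largest rise (left) and the 12 with the largest fall (right) among called genes at a mean log2 CPM of 1 or more; each point is 1 of 3 NT+noGV (grey) or 3 PUT+noGV (orange) libraries, horizontal lines are means and vertical lines SDs. The groups stand apart in every gene, from RASD1 (0.364 to 1.01 CPM against 5.74 to 6.50 CPM) to DIRC3 (18.01 to 23.6 CPM against 2.46 to 3.60 CPM). The choice of these genes by the size of their change favours this.

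Genes of polyamine metabolism moved modestly, and their largest fall was in AZIN1, an antizyme inhibitor. Of the 14 genes of polyamine synthesis and its control that were tested, 6 rose and 2 fell, with a median of 0.175 against 0.0261 over all genes. ODC1, ornithine decarboxylase, was at 241, 256 and 249 CPM in NT+noGV and 289, 300.5 and 301 CPM in PUT+noGV (0.25, SE 0.046, adjusted p = 6.33e-05). AMD1, which makes the aminopropyl donor for spermidine and spermine, rose from 148, 149.9 and 152 CPM to 240.3, 230.0 and 244 CPM (0.67, SE 0.061). AZIN1 fell from 163, 163 and 161 CPM to 78.1, 79.8 and 77.8 CPM (-1.05, SE 0.054, adjusted p = 9.62e-14). In all 3 genes the groups did not overlap, and the spread between libraries was small beside the difference in AMD1 and AZIN1. OAZ2, an antizyme, rose from 41.9, 45.7 and 48.8 CPM to 75.2, 67.4 and 80.5 CPM (0.71). MAT2A, which makes S-adenosylmethionine, rose by 0.43. The synthases moved little: SRM, spermidine synthase, had a log2 fold change of -0.18, and SMS, spermine synthase, of -0.063 (adjusted p = 0.286). Small changes of OAZ1 (0.16, adjusted p = 0.0182), ARG2 (0.19) and SRM rested on single libraries. Without 1 library the adjusted p of OAZ1 went up to 0.0626 (without NT+noGV replicate 1 or 2), that of ARG2 to 0.0639 (without PUT+noGV replicate 1) and that of SRM to 0.139 (without NT+noGV replicate 2 or 3 or PUT+noGV replicate 1 or 3).

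Of the 9 enzymes of polyamine acetylation and oxidation tested, 4 rose and none fell. SAT1, which acetylates spermidine and spermine as the first step of their return to putrescine, rose from 301, 289 and 302 CPM to 542, 514 and 572 CPM (0.87, SE 0.065, adjusted p = 4.94e-11). AOC2 and AOC3, copper amine oxidases, rose by 0.81 and 1.21 from levels near 2 and 1 CPM. MAOB rose at a level under 1 CPM in every library. SMOX, spermine oxidase, had 3.85, 3.996 and 3.59 CPM in NT+noGV and 3.77, 3.47 and 4.11 CPM in PUT+noGV, and its groups overlapped (-0.0088, adjusted p = 0.969). Of 13 genes of polyamine transport and of the hypusine modification of EIF5A, 5 rose and 4 fell. CAV1, caveolin, fell from 566, 565 and 566 CPM to 402, 397 and 416 CPM (-0.48), and SLC12A8 fell by 0.79. SLC18B1, a vesicular polyamine transporter, rose by 0.3, and SLC3A2 and SLC7A5, the chains of an amino acid exchanger, by 0.24 and 0.18. The pair of hypusine enzymes went opposite ways, with DHPS at -0.32 and DOHH at 0.45. ATP13A2 (-0.16, adjusted p = 0.0328), a lysosomal polyamine exporter, and EIF5A2 (0.23) passed the test but did not without any of 5 of the 6 libraries taken singly (adjusted p up to 0.201 and 0.101). Only leaving out PUT+noGV replicate 2 kept both. The filter on low counts decided ATP13A2 too, at an adjusted p of 0.0641 without it.

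**Figure D3:**
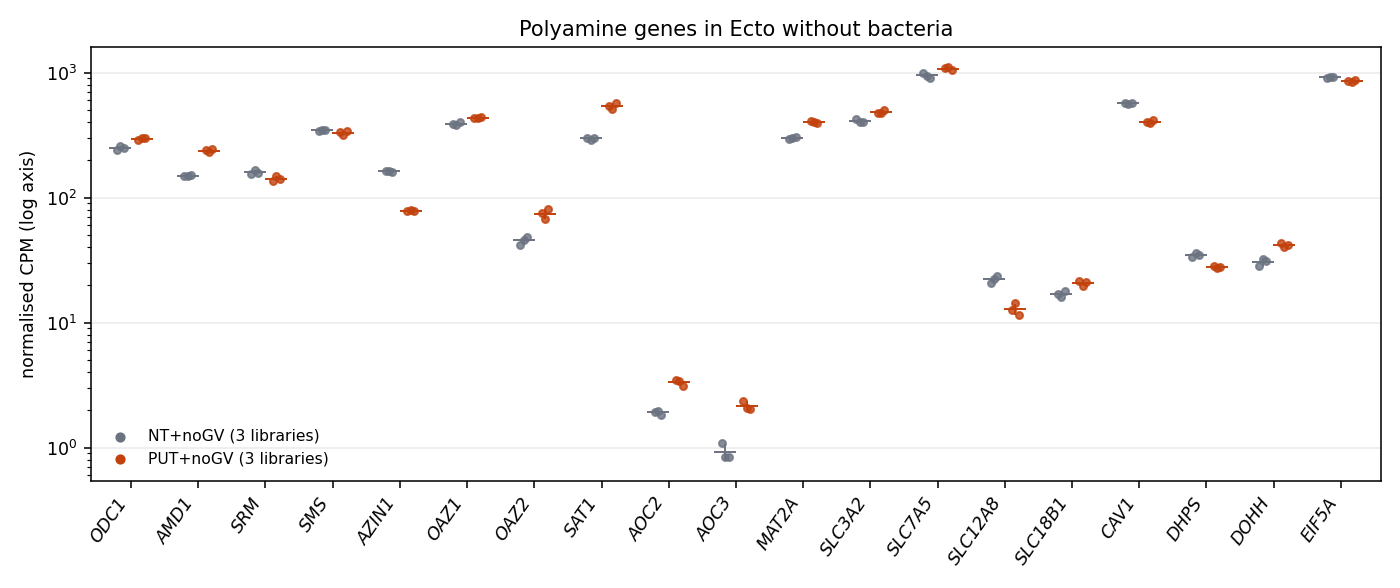
Normalised CPM per library on a log axis for 19 polyamine genes in Ecto cells without bacteria; each point is 1 of 3 NT+noGV (grey) or 3 PUT+noGV (orange) libraries, horizontal lines are means and vertical lines SDs. AZIN1 drops from a mean of 162 to 78.6 CPM, and AMD1, OAZ2 and SAT1 lie higher in every PUT+noGV library.

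The transcripts of the ATF4 amino acid response fell together. ATF4 is the transcription factor that is translated when amino acids run short or the ER is stressed, and its targets import and make amino acids and charge tRNAs. Of 32 genes tested, 26 fell and 4 rose, with a median of -0.551 against 0.0261 over all genes. Called lowered were 6 of the 32, against 1.45% of all genes. CHAC1, which degrades glutathione, was at 32.1, 32.6 and 30.8 CPM in NT+noGV and 11.04, 12.1 and 13.6 CPM in PUT+noGV (-1.38, SE 0.095, adjusted p = 1.22e-11). STC2, a secreted stress protein, went from 143, 129 and 118 CPM to 53.02, 48.95 and 51.1 CPM (-1.35, SE 0.06). TRIB3, a pseudokinase, went from 157, 144 and 135 CPM to 69.5, 72.1 and 63.9 CPM (-1.08, SE 0.074). No PUT+noGV library reached the lowest NT+noGV library in any of them. SLC7A11, the cystine importer, fell by 1.42 on the log2 scale, DDIT3 (CHOP) by 0.95 and the ATF4 transcript itself by 0.84, from 279.9, 270.0 and 277 CPM to 151, 151 and 159 CPM. The tRNA synthetase genes GARS1 and AARS1 fell by 0.68 and 0.34. ATF5 went the other way (0.73), as did SLC7A5, SLC3A2 and ATF3. ATF4, SLC7A11, DDIT3, AARS1 and ATF5 were picked from the list after their values were seen. In the list of the unfolded protein response proper, 5 of 18 rose and 5 fell (median -0.06): XBP1 (-0.81) and EDEM1 (-0.83) fell, while the chaperone HSPA5 rose by 0.18.

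The upstream sequence is shown for a strongly and a weakly lowered gene of this list that hold the CHOP-ATF response element, TGATGNAA, within 250 bases before the RefSeq start (GRCh38.p14). The element is bound by ATF4 with its partners, and here its match on the other strand stands in capitals. CHAC1 lies at chr15:40953221-40953470 on the + strand and AARS1 at chr16:70289507-70289756 on the - strand, both 5′ to 3′ along the gene.
CHAC1: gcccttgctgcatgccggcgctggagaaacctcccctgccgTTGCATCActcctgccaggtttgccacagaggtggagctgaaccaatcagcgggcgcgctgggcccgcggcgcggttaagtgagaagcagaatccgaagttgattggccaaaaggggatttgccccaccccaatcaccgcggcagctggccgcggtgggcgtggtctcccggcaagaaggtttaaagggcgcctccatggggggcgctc
AARS1: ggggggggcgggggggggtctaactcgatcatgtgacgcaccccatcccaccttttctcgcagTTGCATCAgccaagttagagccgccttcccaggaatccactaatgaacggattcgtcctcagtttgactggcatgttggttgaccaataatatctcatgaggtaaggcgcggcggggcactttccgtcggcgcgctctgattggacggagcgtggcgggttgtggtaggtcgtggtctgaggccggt
Among the 27 listed genes with an entry, 6 held the element on either strand. It was in 4 of the 21 that fell, in 1 of the 4 that rose and in 1 of the 2 that did not pass the test. Over windows, 13% of those of the list held it against 3.14% of 35116 windows of all genes. A match is a description of these letters and not a mapped binding site.

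Interferon-stimulated genes were lower as well, with exceptions. These genes encode antiviral proteins and are switched on at the interferon-stimulated response element. Of 41 tested, 23 fell and 5 rose, with 6 called lowered and 1 called raised (median -0.347). Over all genes 22.9% fell and 1.45% were called lowered. IFIT1, which binds foreign RNA ends, went from 48.7, 42.1 and 44.4 CPM to 17.6, 15.8 and 17.1 CPM (-1.42, SE 0.091, adjusted p = 3.49e-12). IFIT2 went from 57.5, 52.4 and 56.2 CPM to 19.2, 17.3 and 19.5 CPM (-1.57, SE 0.095). ISG15, a ubiquitin-like protein, went from 39.9, 37.9 and 38.6 CPM to 23.04, 20.4 and 20.3 CPM (-0.87, SE 0.094). In these 3, as in DDX60 above, the groups did not overlap. Against them, IRF7, a transcription factor of the same response, rose from 19.01, 18.4 and 19.8 CPM to 42.8, 41.9 and 41.2 CPM (1.14, SE 0.063), and IFI6, a mitochondrial interferon-induced protein, from 34.5, 38.3 and 36.7 CPM to 52.8, 51.2 and 51.3 CPM (0.51, SE 0.077). IFITM1 (0.68), IRF1 (0.43) and MX1 (0.36) were the other members that rose. STAT2 and IRF9 fell by 0.48 and 0.35.

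Upstream windows are given for 3 lowered genes and 1 that rose, all of which hold this element. Capitals mark GAAANNGAAA on either strand within the 250 bases before the RefSeq start (GRCh38.p14), written 5′ to 3′ along the gene: DDX60 at chr4:168318753-168319002 (- strand), IFIT1 at chr10:89392373-89392622 (+ strand), ISG15 at chr1:1013247-1013496 (+ strand) and IFI6 at chr1:27672193-27672442 (- strand).
DDX60: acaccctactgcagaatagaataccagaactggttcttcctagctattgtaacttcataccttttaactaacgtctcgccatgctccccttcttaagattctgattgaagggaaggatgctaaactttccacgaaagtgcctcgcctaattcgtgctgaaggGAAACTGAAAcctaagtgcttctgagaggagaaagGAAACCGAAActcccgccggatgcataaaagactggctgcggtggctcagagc
IFIT1: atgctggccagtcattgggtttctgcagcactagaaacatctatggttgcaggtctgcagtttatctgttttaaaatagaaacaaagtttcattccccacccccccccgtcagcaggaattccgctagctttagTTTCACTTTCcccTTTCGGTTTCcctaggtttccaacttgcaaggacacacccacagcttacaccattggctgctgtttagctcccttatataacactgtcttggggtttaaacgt
ISG15: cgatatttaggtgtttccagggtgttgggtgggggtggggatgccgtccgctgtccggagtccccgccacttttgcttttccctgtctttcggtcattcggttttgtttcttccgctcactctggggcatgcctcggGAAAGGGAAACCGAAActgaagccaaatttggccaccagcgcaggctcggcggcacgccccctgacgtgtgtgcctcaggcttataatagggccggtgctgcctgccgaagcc
IFI6: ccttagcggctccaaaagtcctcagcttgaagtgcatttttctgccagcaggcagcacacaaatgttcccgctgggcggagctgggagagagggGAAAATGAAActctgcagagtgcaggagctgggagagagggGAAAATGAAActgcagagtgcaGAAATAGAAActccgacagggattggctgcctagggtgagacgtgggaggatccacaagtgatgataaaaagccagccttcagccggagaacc
In ISG15 the matches overlap. Of 34 listed genes with an entry, 23 held the element, and 59.1% of the list's windows held it against 3.02% of all windows. It was in 11 of the 20 genes that fell, in 3 of the 4 that rose and in 9 of the 10 that did not pass the test. ISG15, IFI6 and AARS1 were picked after their values were seen, as genes with a single start and a match.

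**Figure D4:**
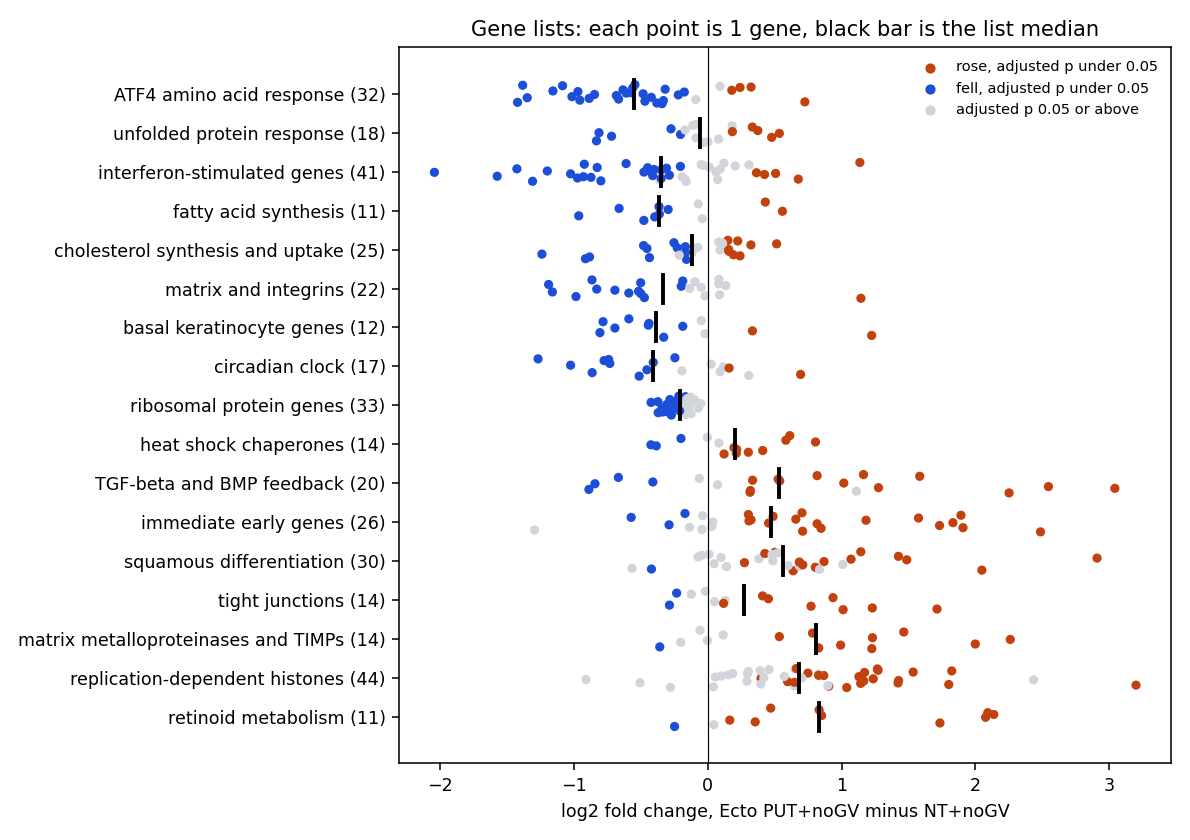
Log2 fold change of PUT+noGV over NT+noGV on the x axis for every tested member of 17 gene lists (number tested in parentheses); each point is 1 gene, coloured where it rose (orange) or fell (blue) at an adjusted p under 0.05, and black bars are list medians. Among these 17 lists medians lie lowest for the ATF4 list (-0.551) and highest for retinoid metabolism (0.833), where RARB, DHRS9 and STRA6 are low in level.

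Histone transcripts rose. Replication-dependent histone genes are read in S phase and their mRNAs end in a stem-loop rather than a poly(A) tail, so this total-RNA assay reads them. Of 44 tested, 22 rose and none fell, and 14 were called raised, with a median of 0.683. Over all genes 23.9% rose and 5.99% were called raised. H1-2, a linker histone, went from 65.5, 58.2 and 63.1 CPM to 130.0, 124 and 130.0 CPM (1.04, SE 0.078, adjusted p = 1.12e-10). H2BC11 went from 19.2, 18.04 and 20.2 CPM to 49.5, 46.4 and 43.2 CPM (1.27, SE 0.1), and H4C8 from 12.3, 12.6 and 12.3 CPM to 30.6, 28.2 and 30.6 CPM (1.27, SE 0.093). All treated libraries were above all non-treated ones for these 3 genes. H2AC18 rose by 1.53, but its reads cannot be told from those of its near-identical copy H2AC19, and reads of other histone genes may be split in the same way. The upstream window of H2BC11 (chr6:27132796-27133045, - strand, GRCh38.p14) is shown as an example of a histone promoter, with TATAAA and CCAAT on either strand in capitals. The leftmost capitals merge TATAAA matches of both strands.
H2BC11: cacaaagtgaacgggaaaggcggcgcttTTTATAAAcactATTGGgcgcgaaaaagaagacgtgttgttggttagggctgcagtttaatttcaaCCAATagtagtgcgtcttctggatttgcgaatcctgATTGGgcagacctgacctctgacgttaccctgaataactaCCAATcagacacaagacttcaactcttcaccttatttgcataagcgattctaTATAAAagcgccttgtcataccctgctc
TATAAA was in 69.0% of the windows of this list against 10.7% of all windows, and CCAAT in 85.7% against 32%. TATAAA was in 13 of the 22 genes that rose and in 15 of the 18 with an entry that did not pass the test. For CCAAT these were 20 of 22 and 14 of 18. In the list of DNA replication and mitosis, 14 of 30 rose and 10 fell. The 4 members with the smallest adjusted p all rose: CCNE2, a cyclin of the entry into S phase, from 13.4, 14.8 and 14.6 CPM to 36.3, 33.9 and 40.3 CPM (1.36), E2F2 by 1.16, CCNE1 by 1.0 and RRM2 by 0.44. Among those that fell were TOP2A (-0.61), CDK1 (-0.46) and CENPF (-0.41), and MKI67 was at 0.042 (adjusted p = 0.811). These last 4 genes were picked after their values were seen.

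In the squamous differentiation list 14 genes rose and 1 fell, and in that of simple epithelium 7 rose and 3 fell. Of 30 squamous differentiation genes tested, the 1 that fell was EMP1 (-0.42), and the median was 0.563. GRHL3, a transcription factor of barrier formation, went from 3.15, 2.42 and 3.59 CPM to 8.84, 9.19 and 8.11 CPM (1.49, SE 0.13). PRDM1 and OVOL1, regulators of late keratinocytes, rose by 1.14 and 1.43. KRT13, the keratin of mature mucosal squamous cells, was low, at 0.624, 0.323 and 0.619 CPM in NT+noGV and 2.56, 1.85 and 2.35 CPM in PUT+noGV (2.05, SE 0.25, adjusted p = 2.23e-07). All 3 treated libraries of KRT13 were above the non-treated ones, yet at under 3 CPM. Its partner KRT4 had a log2 fold change of 2.91 at a mean of 0.0926 CPM in PUT+noGV. The cornified envelope genes IVL, SPRR1B and TGM1 rose by 0.8, 0.69 and 0.71, and 14 listed genes, among them LORICRIN and KRT1, did not reach the filter on low counts. KRT4, EMP1 and these envelope genes were picked after their values were seen. Of 13 simple epithelium genes, 4 of the 7 that rose were called raised (median 0.167). ELF3, a transcription factor of glandular epithelium, was at 2.01, and CLDN4, a claudin also in the tight junction list, at 1.23. The simple keratins KRT7 and KRT18 fell by 0.65 and 0.27.

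In the basal keratinocyte list 8 of 12 fell and 2 rose. KRT14, the basal keratin, rose from 107, 96.5 and 105 CPM to 237, 223 and 261 CPM (1.23), and KRT5 rose by 0.33. The members that fell were, apart from KRT15 and TP63, genes of the basement membrane anchor and of adhesion: ITGB4 fell from 821, 834 and 859.8 CPM to 509.7, 543 and 504 CPM (-0.69, SE 0.045), COL17A1 by 0.44 and CD44 by 0.33. The list of matrix and integrin genes had 13 of 22 fall and 1 rise (median -0.334). ITGA3, a laminin receptor chain, went from 1604, 1623 and 1588 CPM to 704, 747 and 705 CPM (-1.16, SE 0.051, adjusted p = 5.24e-15), and ITGA5, a fibronectin receptor chain, from 451, 443 and 439.5 CPM to 249, 255 and 229.6 CPM (-0.86). The member that rose was COL1A1, a fibroblast collagen, from 15.3, 15.4 and 16.9 CPM to 34.02, 35.4 and 35.8 CPM (1.15). The cytoskeletal gene ACTG1 fell from 4515, 4536 and 4408 CPM to 2216, 2309 and 2115 CPM (-1.02, SE 0.056), with no overlap of the groups. VIM fell by 0.57 and SNAI2 by 0.59 while SNAI1 rose.

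Of 14 tight junction genes 8 rose and 2 fell (median 0.271), and of 10 desmosome genes 3 rose and 3 fell (median -0.0855). CLDN4 went from 16.4, 17.1 and 18.7 CPM to 41.6, 39.7 and 41.4 CPM (1.23, SE 0.08), CGN (cingulin) from 25.8, 24.2 and 26.8 CPM to 54.8, 48.2 and 52.3 CPM (1.01) and OCLN (occludin) from 20.4, 23.1 and 21.2 CPM to 37.9, 36.8 and 35.4 CPM (0.77). The groups did not overlap for these genes. CLDN1, a claudin of keratinocytes, fell by 0.28. Of 10 cadherins and protocadherins 5 rose and 4 fell, with 4 called raised and none called lowered (median 0.55). Among those that fell were CDH3, from 486, 488 and 499 CPM to 352, 364 and 356 CPM (-0.46), CDH13 by 0.67 and PCDH7 by 0.96. PCDH10, a protocadherin the study names, was at 0.104, 0.161 and 0.0990 CPM in NT+noGV and 1.404, 1.32 and 1.08 CPM in PUT+noGV (3.41, SE 0.33, adjusted p = 3.61e-09), a large ratio between low levels. Of 14 matrix metalloproteinases and inhibitors, 9 rose and 1 fell (median 0.807). MMP10 rose from 2.29, 2.42 and 2.65 CPM to 10.5, 8.77 and 10.3 CPM (2.0, SE 0.099), MMP9 from 3.38, 2.54 and 2.598 CPM to 5.42, 5.46 and 6.26 CPM (0.99) and the inhibitor TIMP1 from 80.9, 79.8 and 85.2 CPM to 138, 142 and 144 CPM (0.78). In these 3 genes, too, all treated libraries were the higher ones. In the plasminogen activator system 2 of 6 rose and 3 fell (median -0.0827), and 1 of 4 kallikreins tested rose. MMP14, anchored in the membrane, fell by 0.36 and was picked after its value was seen.

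Of 11 genes of retinoid metabolism 9 rose and 1 fell (median 0.833). The 4 called raised were CRABP2 and, at low levels, RARB, DHRS9 and STRA6. DHRS9 had means of 0.0842 CPM in NT+noGV and 0.307 CPM in PUT+noGV, and STRA6 of 0.0815 and 0.297 CPM. Over all genes with a mean log2 CPM under 0 the median log2 fold change was 0.374. Beside CRABP2, RDH10, which makes retinaldehyde, rose from 16.02, 15.3 and 15.7 CPM to 28.4, 27.2 and 29.4 CPM (0.85, SE 0.076), and DHRS3, which returns it to retinol, from 3.64, 3.59 and 3.88 CPM to 6.63, 6.98 and 6.22 CPM (0.83). RARB, a retinoic acid receptor, rose by 2.09 from under 0.25 CPM, while ALDH1A3, which makes retinoic acid, fell by 0.25 from a mean of 218 CPM. Of 20 genes of TGF-beta and BMP signaling and its feedback 13 rose and 4 fell (median 0.533). TGFB1 went from 32.9, 34.6 and 33.7 CPM to 68.6, 68.8 and 67.3 CPM (1.02, SE 0.06) and ID3, a BMP target, from 9.21, 9.28 and 10.02 CPM to 21.1, 21.9 and 21.1 CPM (1.16, SE 0.092). ID2, which the study names, was near the limit of counting, at 0.0260, 0.0807 and 0.173 CPM and 0.881, 0.252 and 0.606 CPM (2.54, SE 0.54, adjusted p = 0.000406). FST, which binds activin, fell from 216, 222 and 222 CPM to 123, 121 and 125 CPM (-0.84), and LTBP2 fell by 0.89.

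Of 26 immediate early genes 17 rose and 3 fell (median 0.472): IER5 went from 79.4, 81.2 and 78.2 CPM to 144, 133 and 144 CPM (0.82), IER2 from 66.4, 72.8 and 69 CPM to 127, 121 and 126 CPM (0.85), and FOSB from 2.44, 2.18 and 2.42 CPM to 7.54, 8.01 and 8.08 CPM (1.73). KLF6 fell by 0.57 and EGR1 was at -0.14 (adjusted p = 0.283). In the Notch list 9 of 18 rose and 2 fell. The ligand DLL4 went from 0.962, 0.888 and 0.619 CPM to 3.74, 3.84 and 4.37 CPM (2.29) and the feedback gene NRARP from 31.9, 31.04 and 29.6 CPM to 59.8, 59.4 and 58.3 CPM (0.94), whereas the ligand JAG1 fell from 81.8, 75.6 and 74.5 CPM to 41.2, 40.5 and 38.9 CPM (-0.94). Of 18 Wnt genes 11 rose and 2 fell, with DKK3, a secreted member of the Dickkopf family, falling by 0.95. In the list of EGF-receptor ligands and MAPK feedback 7 of 23 rose and 7 fell (median -0.00505), and in that of Toll-like receptors 3 of 16 rose and 6 fell (median 0.0847). TXNIP, an arrestin that limits glucose uptake, rose from 18.7, 17.8 and 19.8 CPM to 48.9, 51.8 and 51.9 CPM (1.43, SE 0.14), and in its list of alpha-arrestins and glucose-sensing genes 5 of 8 rose and 3 fell. BMF, a pro-apoptotic BCL2 relative, rose from 1.27, 1.25 and 1.34 CPM to 5.01, 5.66 and 4.98 CPM (2.01), and SLC6A6, the taurine carrier, from 41.9, 39.2 and 45 CPM to 87.4, 85.2 and 85 CPM (1.03). In the BCL2 family as a whole 4 of 16 rose and 7 fell (median -0.143). In the list of solute and osmotic response, which holds SLC6A6, 6 of 12 rose and 2 fell.

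Of 11 genes of fatty acid synthesis 7 fell and 2 rose (median -0.36): ACSS2, which makes acetyl-CoA from acetate, went from 301, 305 and 309 CPM to 150.3, 159.5 and 160.0 CPM (-0.96, SE 0.048) and ACLY, which makes it from citrate, from 809, 821 and 851 CPM to 533, 536 and 500.2 CPM (-0.66). Cholesterol genes were mixed, with 11 of 25 falling and 8 rising. MVD went from 157, 166 and 161 CPM to 66.01, 70.7 and 68.6 CPM (-1.24, SE 0.079) and LSS from 273, 281 and 289 CPM to 150.0, 155 and 143 CPM (-0.91), while HMGCS1 rose by 0.23 and INSIG1, a brake on the same pathway, by 0.52. ABCG1, a cholesterol exporter, rose from 2.19, 1.98 and 1.66 CPM to 6.799, 6.39 and 6.19 CPM (1.74). Ribosomal protein genes fell slightly, 20 of 33 with none rising (median -0.209), RPLP0 from 1488, 1515 and 1602 CPM to 1139, 1165 and 1133 CPM (-0.42). The metallothionein MT2A, a metal-binding protein, fell from 2091, 2049 and 2184 CPM to 1085, 1147 and 1116 CPM (-0.92, SE 0.09), and SLC30A1, the zinc exporter, rose from 34.8, 30.5 and 30.3 CPM to 54.9, 48.7 and 55.3 CPM (0.73). Among 17 clock genes 10 fell and 2 rose: NPAS2 went from 31.4, 30.4 and 30.6 CPM to 15.1, 15.8 and 14.5 CPM (-1.02), NR1D1 from 59.01, 58.7 and 57 CPM to 32.8, 31.6 and 31.7 CPM (-0.86) and TEF from 5.8, 5.57 and 5.44 CPM to 2.29, 2.13 and 2.59 CPM (-1.27). Of 26 lysosomal genes 13 fell and 7 rose, among them NPC1 at -0.66 and NEU1 at 0.66. In mitochondrially encoded transcripts 3 of 13 rose and 3 fell, near the shares of all genes (23.9% and 22.9%). MT-ND4, MT-ND5 and MT-CO2 no longer passed the test without single libraries (adjusted p up to 0.0759, 0.0717 and 0.0904). These were PUT+noGV replicate 3 for MT-ND4, NT+noGV replicate 1 or PUT+noGV replicate 2 for MT-ND5, and NT+noGV replicate 2 or 3 or PUT+noGV replicate 3 for MT-CO2.

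Without bacteria, CXCL8 and S100A9, inflammatory genes that the study follows, moved little with putrescine, while IL1A fell and MMP9, given above, rose. CXCL8, the neutrophil chemokine, was at 13.8, 12.4 and 12.1 CPM in NT+noGV and 11.5, 11.99 and 10.8 CPM in PUT+noGV (-0.16, SE 0.12, adjusted p = 0.280). CCL20, a chemokine for dendritic cells and T cells, fell from 13.1, 10.9 and 10.7 CPM to 9.22, 9.22 and 9.12 CPM (-0.34, SE 0.088, adjusted p = 0.00261). S100A9, which with S100A8 forms calprotectin, was at 21.5, 18.3 and 21.3 CPM and 22.3, 19.8 and 20.02 CPM (0.021, adjusted p = 0.918). The groups of CXCL8 and CCL20 did not overlap, and those of S100A9 did. IL1A, an alarmin, fell from 185, 169 and 165 CPM to 95.9, 92.2 and 94.3 CPM (-0.88, SE 0.056). The decoy receptor IL1R2 rose by 1.35, and IL1RL1, another receptor of the IL-1 family, by 1.37. IL11 rose from 2.55, 2.3 and 1.93 CPM to 9.52, 8.27 and 8.58 CPM (1.96). In the cytokine list as a whole 9 of 23 rose and 4 fell. RNASE7, an antimicrobial ribonuclease, fell from 84.8, 84.96 and 79.5 CPM to 30.03, 31.9 and 29.7 CPM (-1.44, SE 0.092), while the protease inhibitors PI3 and SLPI, also antimicrobial, rose from 6.42, 4.96 and 6.83 CPM to 15.8, 14.99 and 15.8 CPM (1.33) and from 33, 30.2 and 31.9 CPM to 57.7, 57.7 and 65.8 CPM (0.93). In the list of NF-kB subunits and feedback genes 6 of 18 rose and 4 fell (median 0.0934). TNFAIP3 and RELB were among those that fell, by 0.81 and 0.72. PTGES, the last enzyme of prostaglandin E synthesis, rose from 29.6, 26.8 and 30.9 CPM to 82.3, 82.3 and 83.2 CPM (1.5, SE 0.063). In its list of prostaglandin synthesis and signaling 4 of 11 rose and 5 fell (median 0.00534).

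The same putrescine step was also made ahead of G. vaginalis, which gives a test of whether bacteria changed it. PUT+GV against NT+GV shares no library with the comparison above. Of the 1165 genes called raised without bacteria, 664 were also called raised with them (57% of these and 43.5% of the 1527 raised with bacteria), and of the 282 lowered genes 73 (25.9% of these and 18.2% of the 400). By direction alone, at an adjusted p under 0.05, 837 of the 1165 rose with bacteria (71.8%, against 31.5% of all genes) and 158 of the 282 fell (56%, against 24.9% of all genes). The interaction, the effect of putrescine with bacteria minus that without, was called for 600 genes (3.08% of those tested), 320 positive and 280 negative. With other size factors this split turned to 257 positive and 343 negative, and with DESeq2 to 187 and 283, so the balance of signs is not fixed.

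Over all genes, 14.4% had a positive interaction at an adjusted p under 0.05 and 12% a negative. In the ATF4 list 20 of 32 members had a positive interaction and 1 a negative, and the list's counts with bacteria were 15 rising and 15 falling. CHAC1, at a mean of 31.8 CPM in NT+noGV and 12.2 CPM in PUT+noGV, had means of 10.6 CPM in NT+GV and 14.2 CPM in PUT+GV, so its log2 fold change was -1.38 without and 0.42 with bacteria (interaction 1.8, SE 0.14, adjusted p = 7.36e-10). Of these 4 groups, NT+noGV had the highest level. STC2 went from -1.35 to 0.19 (interaction 1.54, SE 0.084) and HERPUD1, an ER-stress gene, from -0.72 to 0.7 (interaction 1.42, SE 0.1). Of 17 clock genes 10 had a positive interaction and 1 a negative, and with bacteria 8 rose and 2 fell. TEF had means of 5.604 and 2.33 CPM without bacteria and of 1.82 and 4.996 CPM with them (interaction 2.72, SE 0.2, adjusted p = 5.62e-10). ADIRF-AS1, among the most lowered genes without bacteria, had an interaction of 2.23 (SE 0.14).

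Of 44 histone genes 14 had a negative interaction and none a positive. With bacteria 13 of them rose and 4 fell, and the share that rose is near that of all genes (31.5%). H4C8, raised by 1.27 without bacteria, was at -0.0038 with them (interaction -1.27, adjusted p = 8.04e-08). CCL20 was at a mean of 82.6 CPM in NT+GV and 28.9 CPM in PUT+GV, against 11.6 and 9.19 CPM without bacteria (interaction -1.18, SE 0.11, adjusted p = 3.27e-08). CXCL8 and S100A9 had interactions of -0.73 and -0.9 (adjusted p = 0.00112 and 0.00125). For CXCL8 and S100A9 a fall with putrescine was therefore measured in exposed cells, at -0.89 and -0.88. EPGN, an EGF-receptor ligand, rose by 0.81 without bacteria and fell by 1.55 with them (interaction -2.36, SE 0.14). HMGCS1 went from 0.23 to -1.04 (interaction -1.27) and CDCA7 from -0.43 to -2.04 (interaction -1.6). PTGES, raised by 1.5 alone, was raised by 0.19 in exposed cells (interaction -1.31). H4C8 was picked after its interaction was seen.

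The response also depended on the cell line. The test of the difference between lines called 596 of 21195 genes for Ecto against Endo (2.81%), 468 with a more positive effect in Ecto, and 435 for Ecto against VK2 (2.05%), 223 of them positive. Of the 1165 genes raised in Ecto, 99 were called raised in Endo (8.5% of these, 45.4% of the 218 raised in Endo) and 385 in VK2 (33% and 43.4% of 888). Of the 282 lowered genes, 37 were called lowered in Endo (13.1% and 21% of 176) and 58 in VK2 (20.6% and 25.7% of 226). By direction alone, of the 1162 raised genes tested in all lines, 283 rose in Endo (24.4%, against 12.2% of all genes) and 574 in VK2 (49.4%, against 17.5%). Of 279 lowered genes, 129 fell in Endo (46.2%, against 13% of all genes) and 155 in VK2 (55.6%, against 20.1%). No gene of the Ecto lowered list that was tested in Endo rose there at an adjusted p under 0.05.

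CRABP2 rose in all 3 lines but most in Ecto, by 2.14 against 0.94 in Endo (difference 1.17, adjusted p = 1.75e-17) and 0.89 in VK2 (difference 1.22). KITLG, stem cell factor, rose in Ecto by 1.47 and was at -0.41 in Endo (difference 1.85, adjusted p = 6.45e-16). HAP1 and RGS2 rose more in Ecto than in either of the other lines, with differences of 1.52 and 1.27 against Endo and of 1.11 and 1.09 against VK2. AKAP12 and SLC20A2, a phosphate carrier, fell in Ecto by 1.46 and 1.14 and were at 0.066 and 0.087 in Endo and at -0.26 and -0.026 in VK2. KRT8, a keratin of simple epithelium, was at -0.13 in Ecto (adjusted p = 0.105) and rose by 1.01 in Endo. TGM2, a transglutaminase, fell by 0.76 in Ecto and rose by 1.55 in VK2 (difference -2.33, adjusted p = 4.09e-19). HSPA5 rose slightly in Ecto and fell by 0.91 in VK2 (difference 1.07).

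The gene lists met in some settings and parted in others. The ATF4 list had 26 of 32 genes falling in Ecto, 19 in Endo (median -0.255) and 29 in VK2 (median -0.737), and the interferon list 23 of 41 in Ecto, 38 in Endo (median -0.782) and 24 in VK2 (median -0.459). Over all genes 13% fell in Endo and 20.1% in VK2. In the test between Ecto and Endo, where 9.78% of all genes had the more positive effect in Ecto and 14.6% the more negative, 26 interferon genes had the more positive effect in Ecto and 3 the more negative. Histone genes rose in all 3 lines, 22 of 44 in Ecto, 21 in Endo and 24 in VK2, where the median was 1.48 and 16 genes had a more positive effect than in Ecto and none a more negative. Over all genes 12.2% rose in Endo and 17.5% in VK2, and in the test between Ecto and VK2 10.5% had the more positive effect in VK2 and 8.62% in Ecto. Among retinoid genes 6 of 11 had a more positive effect in Ecto than in Endo and none a more negative. AZIN1 fell in each setting, by 1.05 in Ecto, 1.11 with bacteria, 1.07 in Endo and 0.94 in VK2, and none of these differences from Ecto passed the test. For ODC1 they did with bacteria (log2 fold change -0.55, interaction -0.8, adjusted p = 2.31e-09) and in VK2 (-0.42, adjusted p of the difference = 9.59e-12). SMOX, which did not pass the test in Ecto without bacteria, rose by 1.1 with them (interaction 1.1, SE 0.17, adjusted p = 2.7e-05).

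**Figure D5:**
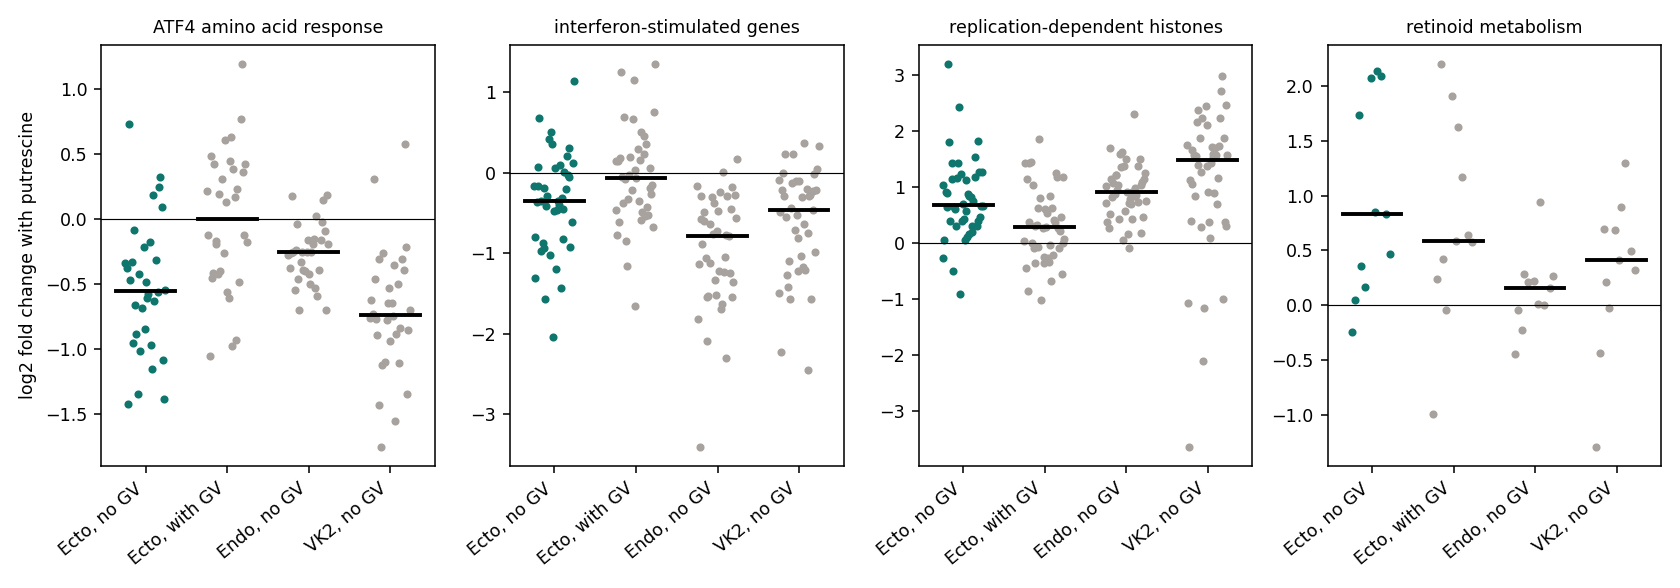
Log2 fold change with putrescine on the y axis for the genes of 4 lists, 1 panel each, in 4 settings: Ecto without bacteria, Ecto with bacteria (PUT+GV over NT+GV), Endo without bacteria and VK2 without bacteria; each point is 1 gene, black bars are medians, and each panel has its own scale. The ATF4 medians are -0.551, 0.00273, -0.255 and -0.737, and the histone medians 0.683, 0.282, 0.91 and 1.48.

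Spermidine and spermine were given to Ecto cells at 400 µM and putrescine at 4 mM, and all 3 comparisons share the NT+noGV libraries, so their values are set side by side without a test between them. SPD+noGV replicate 3 stands apart from the other SPD+noGV libraries: it held 4.69% mitochondrial counts against 3.62% and 3.78%, and its 10 most abundant genes took 6.54% of the counts against 5.52% and 5.58%. Against NT+noGV, 2 genes were called in SPD+noGV (0.0103% of those tested; 1 raised, 1 lowered; 2884 genes had an unadjusted p under 0.05) and 359 in SPM+noGV (1.84%; 110 raised and 249 lowered). Without SPD+noGV replicate 3, a fit chosen after seeing the data, 1 gene was called in SPD+noGV and 1681 had an unadjusted p under 0.05, and 1550 were called with putrescine. AZIN1 was at -1.05 with putrescine, -0.23 with spermidine (adjusted p = 0.0593, and 0.176 without that library) and -0.23 with spermine. AMD1 was at 0.67, -0.18 and -0.43, and SAT1 at 0.87, 0.49 and 0.39. ODC1 was at 0.25, 0.21 and 0.59. SAT1 passed the test with each of the 3 polyamines. ODC1 did so too, but with spermidine its adjusted p of 0.0449 went to 0.0612 without SPD+noGV replicate 3. AMD1 passed the test in opposite directions with putrescine and spermine. Some lists fell with spermine as with putrescine. Of 32 ATF4 genes 27 fell and 1 rose with spermine (median -0.59). In the same comparison 10 of 17 clock, 22 of 41 interferon and 13 of 22 matrix genes fell, and 1 of each list rose. Of 44 histone genes 4 rose and 1 fell, and of 30 squamous differentiation genes 1 rose and 9 fell. Over all 19459 genes 2196 rose and 2376 fell. What part the shared NT+noGV libraries have in this was not tested. As the dose of putrescine differed from that of spermidine and spermine, nothing can be read about putrescine against them as compounds. Spermidine and spermine, at the same dose, were not tested against each other.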

How the data were processed

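Ribosome-depleted, stranded, paired-end total RNA of 72 libraries was quantified by the authors with Salmon and summed to genes with tximeta, on annotation release 44 (GRCh38.p13 per the submitters' processing notes). The values the authors deposited are estimated counts for each gene, all whole numbers and not scaled for depth. The library kit adds molecular identifiers, and whether duplicates were removed is not given in the sources used here.

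Each library was matched to its group by label and all were used. Genes were filtered with filterByExpr, scaled by TMM and fitted with edgeR 4.0.16 in R 4.3.3 (robust quasi-likelihood, no replicate block): the 24 Ecto libraries in 1 model of 8 groups, and all 72 libraries in 1 model for Endo, VK2 and differences between lines. Tests were two-sided with Benjamini-Hochberg adjustment. CPM use normalised library sizes. Counting at these depths limits genes under about 1 CPM. The common biological coefficient of variation was 0.0643. Replicate pairs of these groups differed by more than counting (chi-square per degree of freedom 2.34 to 4.28). The steps were tested on simulated data. Alternatives were DESeq2 1.42.0, other size factors, no filter, 6 libraries only, a replicate block, a higher fold threshold and single libraries left out, and, chosen after seeing the data, a minimum level and a fit without SPD+noGV replicate 3.

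Genes named were the 12 largest changes each way at a mean log2 CPM of 1 or more, all polyamine genes, up to 4 members per list with the smallest adjusted p, 8 genes the study names, and the 5 smallest adjusted p each way for the interaction and each line difference; others were picked after their values were seen, and a few items are not reported here. The members of 60 lists, the comparisons and the rule were chosen with earlier results of these data known. Upstream sequences and starts are from RefSeq (GRCh38.p14), matched by symbol for 34 of 41 interferon, 27 of 32 ATF4 and 40 of 44 histone genes.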

Additional observations from a re-analysis of the deposited data

Results flagged for a closer look

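The genes below are some of those whose putrescine effect differed between settings. By a test of the difference itself, they passed an adjusted p of 0.05 and differed by at least 2-fold. Others that did so, such as TEF, CHAC1 and H4C8 with bacteria, are not repeated here. The values are differences of log2 fold changes. With bacteria minus without, in Ecto cells, the effect was more positive for ADIRF-AS1 (2.22), ADM2 (1.98), BLOC1S3 (1.55), STC2 (1.54), TMEM80 (1.53), HERPUD1 (1.42) and DIRC3 (1.24). It was more negative for EPGN (-2.36), LINC02757 (-1.79), CDCA7 (-1.61), FAM184B (-1.41), RGS2 (-1.4), HMGCS1 (-1.27), CCL20 (-1.18), SRSF7 (-1.04) and SERPINB7 (-1.01).

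Ecto minus Endo, without bacteria, the effect was more positive for PCDH10 (2.4), ID2 (1.93), RHOV (1.92), KITLG (1.85), RASD1 (1.83), SYT11 (1.53), HAP1 (1.52), KRT13 (1.43), GPER1 (1.36), KIF5C (1.32), VASN (1.29), RGS2 (1.27), LINC02757 (1.21), KRT9 (1.21), CRABP2 (1.17), MYLIP (1.07), SERPINB7 (1.05) and HTRA1 (1.05). It was more negative for DIRC3 (-1.92), AKAP12 (-1.55), ADIRF-AS1 (-1.39), ADM2 (-1.37), SLC20A2 (-1.25), CLIP2 (-1.21), LINC00886 (-1.2), KRT8 (-1.16), CAMK2N1 (-1.1), F3 (-1.08), TGM2 (-1.06), STC2 (-1.04) and ACTG1 (-1.02).

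Ecto minus VK2, without bacteria, the effect was more positive for HTRA1 (1.65), VASN (1.61), PCDH10 (1.56), SYT11 (1.5), KRT9 (1.33), CRABP2 (1.22), HAP1 (1.11), RGS2 (1.09), RHOV (1.07), HSPA5 (1.07) and ALDH1A3 (1.02). It was more negative for TGM2 (-2.33), DIRC3 (-1.99), ADIRF-AS1 (-1.27), AKAP12 (-1.23), HMGB3 (-1.19), SLC20A2 (-1.14), CXCL8 (-1.05), CLIP2 (-1.04), CCL20 (-1.01) and EXT1 (-1.01). The leading genes among these were chosen for their size in Ecto cells. PCDH10, ID2 and KRT13 were under 3 CPM in each of the 6 Ecto libraries without bacteria.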

How the results depend on the processing

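The 1447 genes called in Ecto cells with putrescine alone were 1107 with these 6 libraries fitted by themselves, 1373 with DESeq2, 1441 with DESeq2's size factors in edgeR and 1713 without a filter on low counts. Leaving out single libraries gave 1335 to 1445. Without SPD+noGV replicate 3, chosen after seeing the data, 1550 were called, and the 2 genes called with spermidine were 1. A log2 fold change of at least 2 left 324 (307 raised, 17 lowered), and a minimum mean log2 CPM of 1, chosen after seeing the data, left 348 (224 raised, 124 lowered), which follows from the smaller set counted. Same-numbered libraries showed little shared deviation over all tested genes (correlations 0.052, 0.013 and -0.013). These correlations give equal weight to genes with few counts, so they cannot show whether the numbers pair samples. With a replicate block 1444 were called. The interaction with bacteria gave 600 genes, 609 with the block and 543 to 614 without single libraries; the balance of signs turned from 53.3% positive to 42.8% with the other size factors, which moved the median of all genes by -0.06. PUT+GV against NT+GV gave 1927 (1867 to 2002 without single libraries, 1916 with the block), the difference from Endo 596 (521 to 580, 621 with the block) and that from VK2 435 (405 to 422, 442 with the block). In the fit without SPD+noGV replicate 3, of the named genes only AZIN1, AMD1, SAT1 and ODC1 were looked at. No named gene past the threshold changed direction in the other fits of putrescine alone. Of the 279 named genes past the threshold, 15 lost it in some of those fits. Besides the polyamine and mitochondrial genes given above they were AHR, CDH5, FAP, MUC16, MUC20, S100P and TEK. AHR also missed it with the block (adjusted p = 0.0607). Without the filter 15 list medians moved by more than the replicate spread and 3 changed sign; with the other size factors none did. The cause was not tested.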

Other observations

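A few lists not described above are given by their counts alone. Of 15 V-ATPase subunits, the proton pump of lysosomes, 5 rose and 1 fell in Ecto cells given putrescine alone, with ATP6V0B at a log2 fold change of 0.45. Of 14 heat shock chaperones 9 rose and 3 fell, with DNAJA1 at 0.81 and HSP90AB1 at -0.42. Of 25 hypoxia and glycolysis genes 11 rose and 7 fell, with ADM, a vasodilator peptide, at 0.94 and PFKP, a glycolytic enzyme, at -0.57. Of 15 genes of MHC class I presentation 4 rose and 7 fell, with HLA-E at 0.68 and ERAP2 at -0.71. Of 31 chromatin enzymes 6 rose and 12 fell, with the demethylases KDM6B at 0.52 and KDM6A at -0.88.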
